A study of Mus musculus with 24 samples.

Results

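The HIN-200 and pyrin genes of mouse chromosome 1 form a cluster of closely related genes, and 8 of them are described here in natural killer (NK) cells with and without FcRγ: Pyhin1, Gm4955, Pydc3, Pydc4, Ifi202b, Ifi203, Ifi204 and Aim2. They are the rows of the deposited gene table that carry these symbols, 8 of 38215. They were chosen with their KO and WT values known, so differences between KO and WT are given below as a description, without p-values, and the counts past a threshold that stand beside them support nothing. Polyadenylated RNA of NK cells was sequenced in bulk, in 24 libraries that make 6 groups of 4. The groups were KO naive spleen, WT naive spleen, KO IL-15-treated spleen, WT IL-15-treated spleen, KO tumour-bearing lung and WT tumour-bearing lung. KO refers to FcRγ, the signalling adaptor encoded by Fcer1g, and IL-15 is a cytokine that maintains and activates NK cells. The design text calls the 4 libraries of a group biological replicates. The sources used here do not state the strain, how the KO was made, the age and sex of the mice, the route and time of IL-15, the tumour, or whether mice were pooled.

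HIN-200 proteins carry a HIN domain, which binds DNA, and most of them also carry a pyrin domain, through which proteins of the inflammasome join. Type I interferon induces many of these genes. AIM2 senses double-stranded DNA in the cytosol and joins the adaptor ASC (Pycard) to activate caspase-1, and the mouse protein p202, product of Ifi202b, has HIN domains but no pyrin domain and can hold AIM2 signalling back. The mouse cluster holds more genes than the human one, and near-identical stretches are shared between its copies.

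The cluster had 14 rows in the table, the 8 genes above and Mnda, Mndal, Ifi205, AI607873, BC094916 and Gm16340. On GRCm38 it ran over 681 kb, from Aim2 at chr1:173350879-173466040 on the plus strand to Ifi205 at chr1:174011998-174031755 on the minus strand. Between them lie Gm4955 (chr1:173468509-173491041, minus), Pydc4 (chr1:173566284-173599274, minus), Pyhin1 (chr1:173630859-173647928, plus), Pydc3 (chr1:173673911-173698392, plus), Ifi204 (chr1:173747293-173766876, minus), Ifi203 (chr1:173920407-173942672, minus) and Ifi202b (chr1:173962569-173982844, minus). Fcer1g lies at chr1:171229572-171234365, and the cluster genes begin 2.12 to 2.78 Mb beyond its end. All 14 are annotated as protein-coding except Gm16340, a pseudogene. Later annotation (GENCODE M21) names Gm4955 Ifi206, Pydc4 Ifi213, Pyhin1 Ifi209, Pydc3 Ifi208 and BC094916 Ifi214.

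Promoters of 4 genes that were lower in KO (Gm4955, Pydc3, Pydc4 and Pyhin1) are shown to let their likeness be seen, with those of BC094916, which shares reads with Pyhin1 and was not lower in KO, and of Ifi203, which overlapped between KO and WT. Each line is 50 bases upstream of the start site in the RefSeq promoter table (GRCm38.p6), 5′ to 3′ on the strand of the gene, aligned on a motif of GAAA, any 2 bases and GAAA again, the kind of repeat that interferon regulatory factors bind, whose matches are in capitals. They lie at chr1:173491329-173491378 (minus) for Gm4955, chr1:173673587-173673636 (plus) for Pydc3, chr1:173599316-173599365 (minus) for Pydc4, chr1:173630760-173630809 (plus) for Pyhin1, chr1:173536007-173536056 (minus) for BC094916 and chr1:173942498-173942547 (minus) for Ifi203.
Gm4955: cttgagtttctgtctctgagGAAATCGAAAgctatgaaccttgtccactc
Pydc3: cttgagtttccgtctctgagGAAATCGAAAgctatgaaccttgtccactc
Pydc4: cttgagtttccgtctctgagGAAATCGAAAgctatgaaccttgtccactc
Pyhin1: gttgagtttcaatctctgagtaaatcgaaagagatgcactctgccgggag
BC094916: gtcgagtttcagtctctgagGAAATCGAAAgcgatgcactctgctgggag
Ifi203: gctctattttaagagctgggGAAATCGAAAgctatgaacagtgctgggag

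Counting from 1 at the 5′ end of these 50 bases, Pydc3 and Pydc4 had the same letters and differed from Gm4955 by T11C alone. Over the whole window of 250 bases before to 50 after the start site, Pydc3 and Pydc4 matched at 282 of 285 aligned bases (98.9%), and Gm4955 matched Pydc3 at 89.7% of bases. Pyhin1 matched its neighbour BC094916 at 45 of the 50 bases above and differed by C3T, G12A, G21T, C32A and T45C, with the base of BC094916 given before the position. The substitution G21T lies in the stretch that matches the motif in BC094916, and the Pyhin1 window held no match. On either strand, 4 of the 7 listed genes with a promoter in the table (Gm4955, Pydc3, Pydc4 and Ifi203) and 9 of 12 cluster genes with one held a match, against 1079 of 27025 genes (3.99%) in the whole table. A match describes the letters, not a bound site.

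The windows of Aim2 and Ifi202b also held no match, and the Ifi202b window is shown because this gene had reads in KO libraries alone. It spans chr1:173982795-173983094 on the minus strand, 300 bases, in lower case throughout since nothing in it is marked.
Ifi202b: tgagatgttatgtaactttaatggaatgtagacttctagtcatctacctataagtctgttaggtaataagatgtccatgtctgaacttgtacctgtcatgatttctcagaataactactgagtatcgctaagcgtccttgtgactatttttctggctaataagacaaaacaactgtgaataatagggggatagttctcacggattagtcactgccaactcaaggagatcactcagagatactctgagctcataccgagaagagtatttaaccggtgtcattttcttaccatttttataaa

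Copies this alike share reads, and the deposited expected counts split such reads between rows by estimation. Of 100-base windows of the annotated Pyhin1 transcripts, 16.9% occur unchanged in BC094916 and in no other cluster gene. The share of windows found elsewhere in the cluster was 10.7% for Ifi204, 7.74% for Gm4955, 5.92% for Pydc3, 3.30% for Pydc4, 2.84% for Ifi203 and 0% for Ifi202b and Aim2. With 50-base windows the shares above 0 were larger and their order differed. They were 33.4% for Pyhin1, 20.8% for Pydc3, 19.2% for Ifi204, 15.8% for Gm4955, 15.6% for Pydc4 and 12.2% for Ifi203. Ifi202b and Aim2 stayed at 0%. The counts followed the same grouping. Within 0.001, Pyhin1, Pydc3, Pydc4 and Ifi204 were not whole numbers in any of 24 libraries, while Ifi202b and Aim2 were whole in all 24. Pyhin1 and BC094916 together gave a whole number in 24 of 24 libraries (within 0.03), as did Gm4955, Pydc3 and Pydc4 together, and as did Ifi203, Ifi204, Mnda, Mndal, Ifi205, AI607873 and Gm16340 together. The sets were found after the values were seen. A split of reads within a set leaves its sum as it is, and the value of a gene within a set is less certain than the sum.

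Totals ran from 9683382 to 32095383 counts per library, with KO naive replicate 1 (9683382) and WT lung replicate 1 (9774684) the shallowest. Levels below are CPM, expected counts scaled to the TMM-adjusted library total. Fcer1g stood at 1.25 to 16.2 CPM in KO libraries and 253 to 795 CPM in WT libraries. All 10 NK cell markers, among them Ncr1 and Eomes, had reads in every group, and their sum moved with state and genotype. It was 17700 to 20800 CPM in KO and 22100 to 23800 CPM in WT naive spleen, 8350 to 8960 in KO and 8910 to 9940 in WT with IL-15, and 13200 to 15000 in KO and 14500 to 18300 in WT lung. The summed T cell markers reached 44.7 to 71.5 CPM in KO naive spleen and 21.4 to 30.5 CPM in WT naive spleen, 8.67 to 12.9 in KO and 4.11 to 10.1 in WT under IL-15, and 23.5 to 34.7 in KO and 10.2 to 21.5 in WT lung. The part of these markers and of other cells in the levels that follow was not tested. In bulk RNA, fewer cells with a transcript and less transcript per cell cannot be told apart. Between KO and WT, the loss of Fcer1g and any other DNA of chromosome 1 that came with it cannot be told apart.

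Gm4955, Pydc4, Pyhin1 and Pydc3 were lower in every KO library than in any WT library of the same state, in all 3 states. In naive spleen Pyhin1, a gene of the pyrin and HIN type, had 19.4, 39.2, 39.3 and 45.9 CPM in KO and 218, 221, 217 and 235 CPM in WT. Under IL-15 it had 25.0, 28.6, 34.9 and 32 CPM in KO and 154, 116, 170 and 161 CPM in WT. In lung it had 37.4, 43.4, 33.8 and 40.1 CPM in KO and 132, 123, 114 and 122 CPM in WT. The KO libraries stayed between 19.4 and 45.9 CPM in all states, and the KO groups overlapped each other, whereas the 4 WT naive libraries stood above all other WT libraries. The log2 change of KO over WT was −2.65 ± 0.20 in naive spleen (here and below ± the standard error), −2.33 ± 0.20 with IL-15 and −1.67 ± 0.11 in lung.

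Gm4955 was the gene with the lowest KO share of the WT mean, 2.31% under IL-15. Its naive levels were 6.82, 5.48, 3.97 and 5.92 CPM in KO and 71.1, 56.3, 77.5 and 66.8 CPM in WT. With IL-15 they were 0.840, 1.31, 1.38 and 1.23 CPM in KO and 45.2, 40.1, 60.5 and 59.9 CPM in WT. In lung they were 2.44, 3.31, 2.79 and 2.80 CPM in KO and 34.7, 41.7, 44.0 and 47.7 CPM in WT. The KO groups did not overlap each other and ran naive, lung, IL-15 from high to low, while among WT groups naive overlapped IL-15 and IL-15 overlapped lung. KO over WT was −3.66 ± 0.19, −5.43 ± 0.21 and −3.89 ± 0.16 log2 units in naive spleen, IL-15-treated spleen and lung.

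Pydc3 and Pydc4 are named for their pyrin domain. Pydc3 had 3.99, 13.1, 11.6 and 14.9 CPM in KO naive spleen and 59.9, 68.7, 72.1 and 64.8 CPM in WT naive spleen. Under IL-15 the values were 5.01, 5.29, 7.47 and 5.70 CPM in KO and 34.4, 17.1, 39.6 and 38.3 CPM in WT. In lung they were 15.1, 14.8, 17.2 and 23.6 CPM in KO and 37.5, 25.7, 28.8 and 36.8 CPM in WT. The gap was narrowest in lung, where the highest KO library stood at 23.6 CPM and the lowest WT library at 25.7 CPM. The lowest naive KO value, 3.99 CPM, was the shallow replicate 1. KO over WT was −2.60 ± 0.29, −2.47 ± 0.30 and −0.86 ± 0.18 log2 units in naive spleen, IL-15-treated spleen and lung.

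Pydc4 was the least abundant of the 4, with 1.9, 0.710, 1.03 and 1.5 CPM in KO naive spleen and 14.5, 9.58, 13.8 and 11.5 CPM in WT naive spleen. It had 0.602, 0.713, 0.773 and 0.691 CPM in KO and 10.2, 6.01, 11.5 and 11.1 CPM in WT under IL-15. In lung it had 1.2, 1.10, 0.852 and 1.67 CPM in KO and 12.3, 17.8, 17.5 and 23.2 CPM in WT. WT lung was its highest group by mean (17.7 ± 4.43 CPM, SD, n = 4) and overlapped WT naive spleen (12.4 ± 2.25). KO over WT was −3.34 ± 0.30, −3.81 ± 0.31 and −3.88 ± 0.27 log2 units in the 3 states, in the order above.

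**Figure D1:**
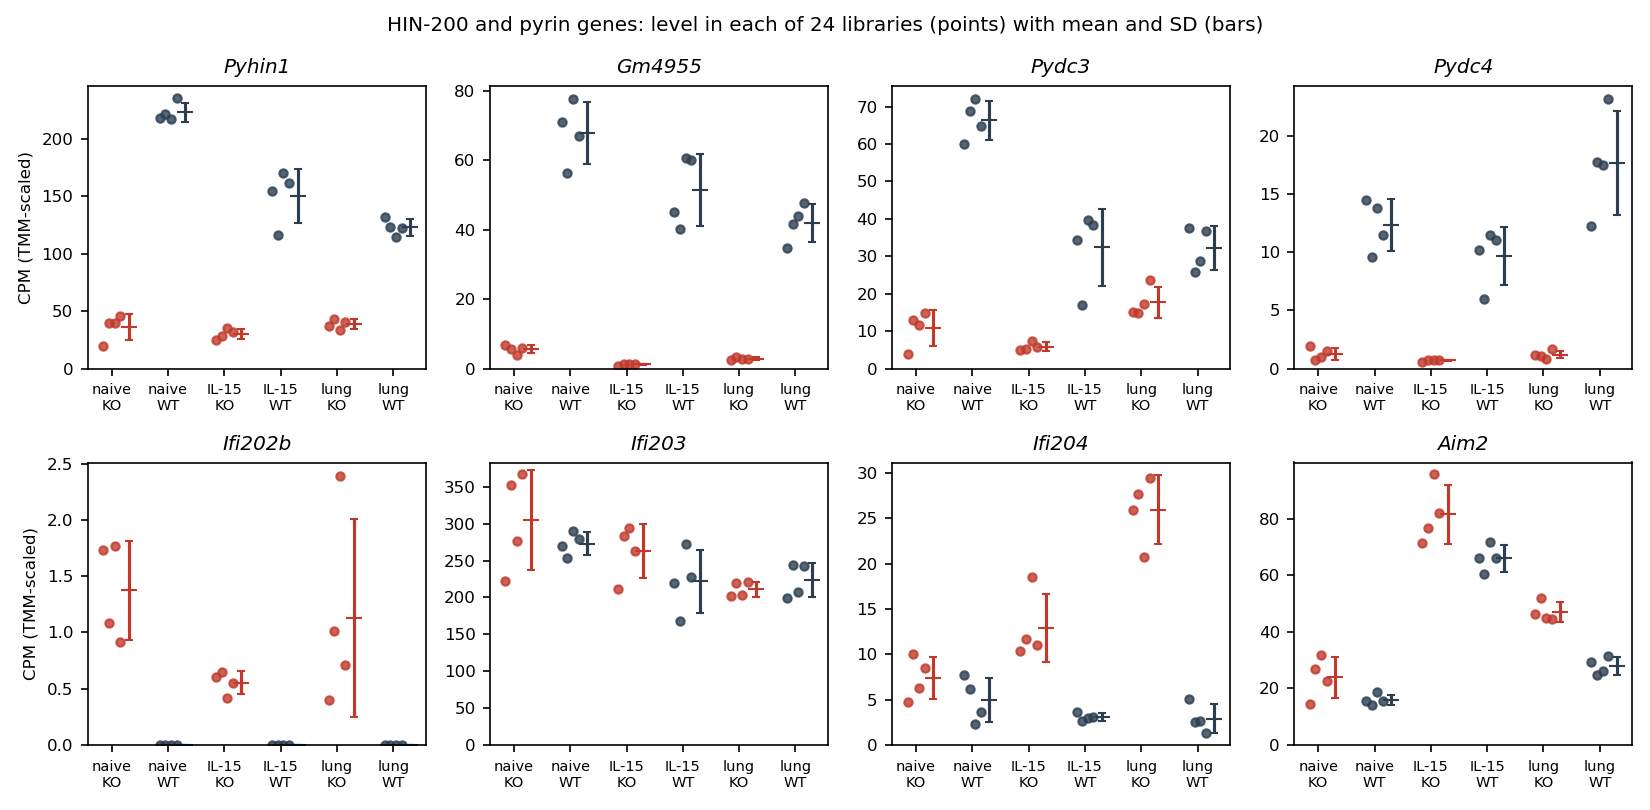
Level of each of the 8 genes (vertical axis, CPM on TMM-scaled totals, each panel on its own scale from 0) in the 24 libraries, with KO in red left of WT in dark blue for naive spleen, IL-15-treated spleen and lung. Points are libraries and bars are mean and SD of 4. Pyhin1, Gm4955, Pydc3 and Pydc4 are lower in KO without overlap in each state, Ifi202b is at 0 in WT, and Ifi203 overlaps throughout.

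Since Pyhin1 shares reads with BC094916, their sum was compared as well. It was 52.4 ± 16.6 CPM in KO and 228 ± 8.93 CPM in WT naive spleen (22.9% of WT), 39.3 ± 5.43 and 156 ± 23.7 CPM under IL-15 in KO and WT (25.2%), and 50.2 ± 4.38 and 129 ± 6.34 CPM in lung in KO and WT (38.9%). BC094916 itself ran the other way, at 16.5 ± 5.21 CPM in KO and 5.67 ± 1.18 CPM in WT naive spleen, 9.20 ± 1.51 and 5.91 ± 1.29 CPM under IL-15, and 11.5 ± 0.946 and 6.19 ± 2.34 CPM in lung, KO given before WT. The sum of Gm4955, Pydc3 and Pydc4 was 17.7 ± 4.08 CPM in KO and 147 ± 12.1 CPM in WT naive spleen (12.1%), 7.75 ± 1.34 in KO and 93.5 ± 22.4 in WT under IL-15 (8.29%), and 21.7 ± 4.3 in KO and 91.9 ± 10.8 in WT lung (23.6%). Neither sum overlapped between KO and WT in any state.

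Ifi202b, the gene of p202, had reads in all 12 KO libraries and in none of 12 WT libraries. In KO it stood at 1.73, 1.08, 1.77 and 0.912 CPM in naive spleen, 0.601, 0.648, 0.415 and 0.552 CPM under IL-15, and 0.399, 1.01, 2.39 and 0.708 CPM in lung. These are 111, 68 and 107 reads summed over the 4 KO libraries of each state, against 0 reads over the 4 WT libraries. Against a limit of 3 reads over the WT group, KO was at least 45.8-fold higher in naive spleen, at least 22.5-fold higher with IL-15 and at least 30.7-fold higher in lung. The limit covers counting error only, and at this depth WT levels below 0.00963 CPM over all 12 libraries could not be seen. Its counts were whole and none of its 100-base windows occurs in another cluster gene, so no split of reads enters this value.

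Ifi204, whose mouse product p204 has been linked to DNA sensing and to cell differentiation, had 4.75, 10, 6.33 and 8.45 CPM in KO and 7.73, 6.16, 2.33 and 3.64 CPM in WT naive spleen, where the groups overlapped. Under IL-15 it had 10.4, 11.7, 18.5 and 11 CPM in KO and 3.63, 2.61, 3.00 and 3.04 CPM in WT. In lung it had 25.9, 27.7, 20.7 and 29.5 CPM in KO and 5.13, 2.56, 2.62 and 1.31 CPM in WT. KO was thus higher without overlap under IL-15 and in lung. The log2 changes were 2.05 ± 0.33 under IL-15, 3.26 ± 0.32 in lung and 0.56 ± 0.32 in naive spleen. Ifi204 shares windows mainly with Mnda, and the sum of both was 14.7 ± 3.82 CPM in KO and 4.84 ± 0.722 CPM in WT under IL-15, and 29.2 ± 4.58 CPM in KO and 4.49 ± 2.01 CPM in WT lung. That pair is not closed: its sum was whole in 0 of 24 libraries.

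Macrophages and monocytes also express genes of this family, so their markers stand beside Ifi204. The sum of 11 macrophage and monocyte markers was 156 to 649 CPM (median 320) in KO lung and 60.1 to 139 CPM (median 134) in WT lung, without overlap, and Lyz2 alone was 313 ± 188 CPM in KO and 94.9 ± 32.7 CPM in WT lung. None of the 11 was at 0 in every library of either lung group. The part of these cells in the values of Ifi204, in lung or under IL-15, was not tested. Under IL-15, where Ifi204 was also higher in KO, Lyz2 stood at 0.0642 ± 0.0657 CPM in KO and 0.0261 ± 0.0187 CPM in WT. There Fcgr1, C1qa and C1qc were at 0 in all KO libraries and Fcgr1, C1qb, C1qc and Mrc1 in all WT libraries, Csf1r averaged 0.00771 CPM in KO and 0.0374 CPM in WT, and Cd68, at 24.0 ± 2.96 CPM in KO and 20.1 ± 2.36 CPM in WT, made up most of a sum of 20.3 to 27.7 CPM in KO and 18.4 to 23.6 CPM in WT.

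**Figure D2:**
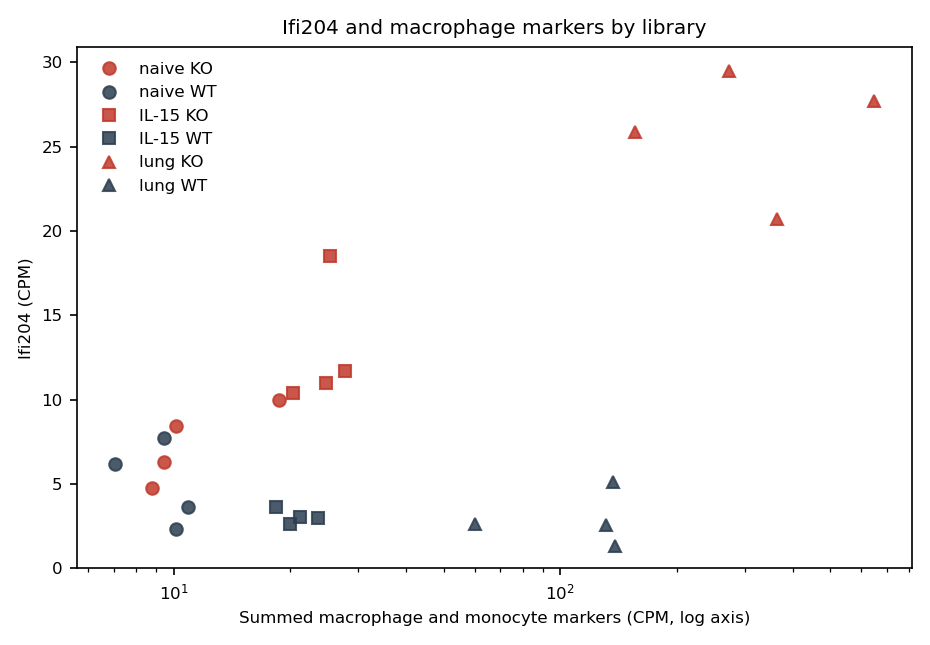
Ifi204 (vertical axis, CPM) against the summed macrophage and monocyte markers (horizontal axis, CPM, log scale) in the 24 libraries, with red for KO and dark blue for WT, circles for naive spleen, squares for IL-15 and triangles for lung. Under IL-15 both genotypes have marker sums of 18.4 to 27.7 CPM, and Ifi204 is 10.4 to 18.5 CPM in KO and 2.61 to 3.63 CPM in WT. The part of these cells in Ifi204 was not tested.

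Aim2, the cytosolic DNA sensor, differed less by genotype than by state. It had 14.6, 26.9, 31.7 and 22.5 CPM in KO and 15.5, 14.1, 18.6 and 15.5 CPM in WT naive spleen. Under IL-15 the values were 71.5, 76.8, 95.8 and 82.1 CPM in KO and 66.0, 60.3, 71.9 and 66.1 CPM in WT, and in lung 46.3, 52.1, 44.8 and 44.5 CPM in KO and 29.4, 24.8, 26.1 and 31.5 CPM in WT. KO and WT overlapped in naive spleen, where KO replicate 1 (14.6 CPM) was the shallow library, and under IL-15, and stood apart in lung. KO over WT was 0.57 ± 0.18, 0.29 ± 0.17 and 0.75 ± 0.12 log2 units in naive spleen, IL-15-treated spleen and lung. Aim2 overlaps Cadm3 on the other strand, and the sources used here do not state whether counting used strand. Cadm3 averaged 0.0974 to 1.45 CPM over the 6 groups, far below Aim2.

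Ifi203 carried the most reads of the 8 and overlapped between KO and WT in every state. It had 222, 352, 277 and 368 CPM in KO and 270, 253, 290 and 279 CPM in WT naive spleen. Under IL-15 it had 212, 283, 294 and 263 CPM in KO and 220, 168, 272 and 228 CPM in WT, and in lung 202, 219, 203 and 221 CPM in KO and 199, 244, 208 and 242 CPM in WT. All neighbouring groups in its order of means overlapped, from 305 ± 68.3 CPM in KO naive spleen to 211 ± 10.1 CPM in KO lung. KO over WT was 0.13 ± 0.16, 0.23 ± 0.16 and −0.08 ± 0.10 log2 units. Its row overlaps that of Mndal on the same strand, and the sum of both was 374 ± 87.5 in KO and 376 ± 21.0 CPM in WT naive spleen, 349 ± 40.7 in KO and 329 ± 45.8 under IL-15 in WT, and 344 ± 26.3 in KO and 374 ± 31.1 in WT lung.

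Placed along the chromosome, the listed genes lower in KO and the other rows alternated in part. Gm4955, Pydc4, Pyhin1 and Pydc3 begin 117.6, 215.4, 280.0 and 323.0 kb beyond the start of Aim2. Among them, at 168.8 kb, lies BC094916, higher in KO without overlap in each state. Ifi204 at 396.4 kb and Ifi202b at 611.7 kb, each higher in KO without overlap in at least 2 states, flank Mndal, Mnda and Ifi203. Mndal, at 506.3 kb, stood at 69.5 ± 20.9 CPM in KO and 103 ± 13.7 CPM in WT naive spleen, 86.3 ± 9.20 CPM in KO and 107 ± 7.47 CPM in WT with IL-15, and 133 ± 20.7 CPM in KO and 150 ± 16.4 CPM in WT lung, so its mean was lower in KO in each state, without overlap with IL-15. Mnda, at 545.5 kb, averaged 1.59 to 3.22 CPM over the 6 groups.

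**Figure D3:**
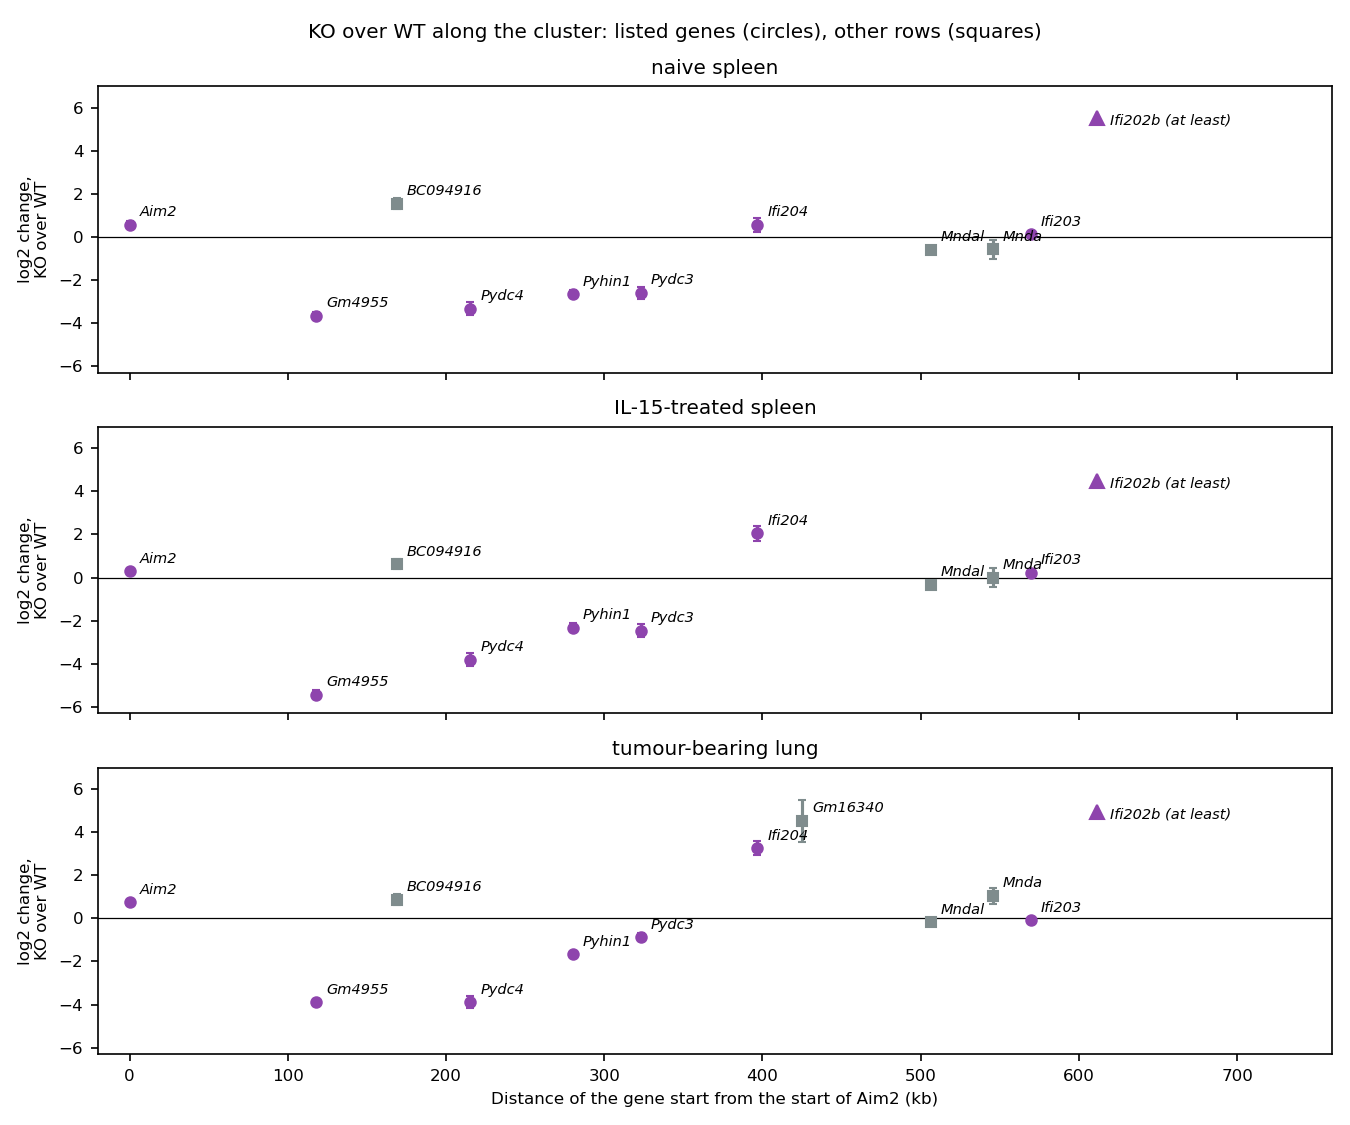
Log2 change of KO over WT (vertical axis, with standard error) against the distance of the gene start from the start of Aim2 (horizontal axis, kb) in naive spleen, IL-15-treated spleen and lung. Circles are listed genes, squares are other tested rows of the cluster, and triangles mark the lower bound for Ifi202b, whose WT libraries had 0 reads. Gm4955, Pydc4, Pyhin1 and Pydc3 lie below 0 in each state.

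With edgeR's threshold of 0.05 on the adjusted p, which the choice of these genes had already used, 2 of 8 were higher (Ifi202b and Aim2) and 4 lower in KO naive spleen, where 20.3% of all genes tested passed (11.1% higher and 9.22% lower). Under IL-15, 2 were higher (Ifi202b and Ifi204) and 4 lower of 8, where 0.135% of all genes passed (0.0824% higher and 0.0525% lower). In lung 7 were tested, of which 2 were higher (Aim2 and Ifi204) and 3 lower (Pyhin1, Gm4955 and Pydc4), where 0.625% passed (0.305% higher and 0.320% lower). Ifi202b had too few reads to enter the lung fit, and Pydc3 did not pass there. Groups stood apart for 1 higher and 4 lower of 8 genes in naive spleen (10.4% and 9.91% of all genes), 2 and 4 under IL-15 (2.07% and 1.00%) and 3 and 4 in lung (4.21% and 4.55%). Nothing is read from these counts, since the genes were picked on this contrast.

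The family sum was lower in KO in each state but by much less than its 4 lowest members. Over the 8 genes it was 275, 448, 372 and 468 CPM in KO and 657, 629, 691 and 676 CPM in WT naive spleen. Under IL-15 it was 326, 408, 453 and 397 CPM in KO and 533, 411, 628 and 568 CPM in WT, and in lung 331, 363, 326 and 364 CPM in KO and 451, 480, 441 and 505 CPM in WT. KO and WT stood apart in naive spleen and lung and overlapped under IL-15, where WT replicate 2 had 411 CPM. Of the WT mean, KO naive spleen held 58.9%, KO IL-15-treated spleen 74.0% and KO lung 73.7%, and over all 14 rows 61.8, 76.0 and 78.9%. The 8-gene sum is not closed, as it was whole in 1 of 24 libraries (within 0.03), while the sum of all 14 rows was whole in 24 of 24. The sum of Pyhin1, Gm4955, Pydc3 and Pydc4 alone was 53.7 ± 15.3 CPM in KO and 369 ± 12 CPM in WT naive spleen (14.5%), 37.9 ± 5.55 in KO and 244 ± 45.7 in WT under IL-15 (15.5%), and 60.4 ± 6.23 in KO and 215 ± 10.9 in WT lung (28.1%).

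The make-up of the sum changed accordingly. Ifi203 made up 78.0 ± 2.65% of the 8-gene sum in KO and 41.1 ± 0.698% in WT naive spleen, 66.4 ± 2.10% in KO and 41.4 ± 1.32% in WT under IL-15, and 61.2 ± 0.866% in KO and 47.5 ± 2.68% in WT lung. Pyhin1 made up 9.02 ± 1.5% in KO and 33.6 ± 1.70% in WT naive spleen. Aim2 held 20.6 ± 1.35% in KO and 12.5 ± 1.51% in WT under IL-15, against 6.16 ± 1.64% in KO and 2.40 ± 0.208% in WT naive spleen. Per kilobase of exon, which allows genes to be compared, the order in WT naive spleen was Pyhin1 at 62.8 ± 2.36 CPM per kb, Ifi203 at 40.7 ± 2.32, Gm4955 at 22.2 ± 2.91 and Pydc3 at 12.6 ± 1.00. In KO naive spleen the order was Ifi203 at 45.4 ± 10.2 CPM per kb, Pyhin1 at 10.1 ± 3.23, Aim2 at 6.83 ± 2.07, Ifi204 at 2.08 ± 0.653, Pydc3 at 2.07 ± 0.913 and Gm4955 at 1.82 ± 0.390, the last 3 of which differ by less than their SD.

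**Figure D4:**
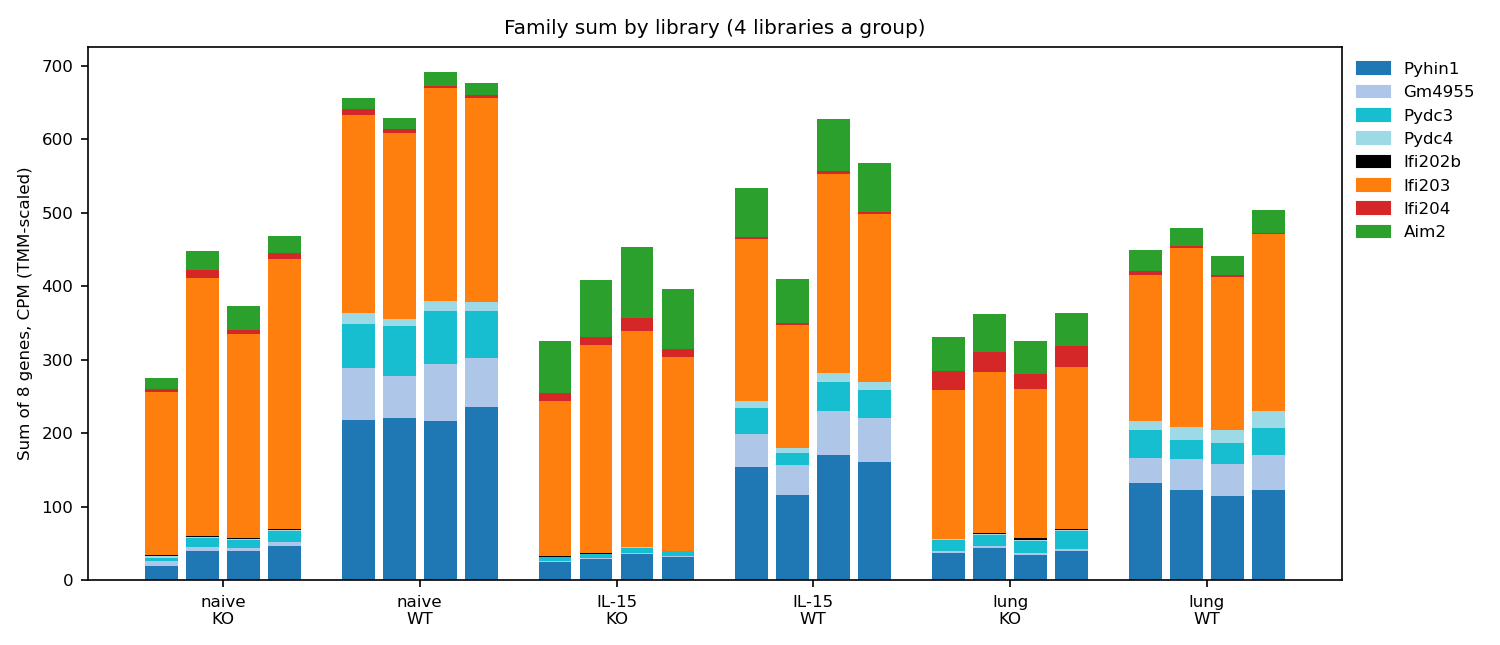
Sum of the 8 genes in each library (vertical axis, CPM on TMM-scaled totals, stacked by gene), 4 libraries a group, with KO left of WT in naive spleen, IL-15-treated spleen and lung. The blue shades, Pyhin1, Gm4955, Pydc3 and Pydc4, add up to 31.4 to 68.2 CPM in KO and 180 to 381 CPM in WT, while Ifi203 in orange is 202 to 368 CPM in KO and 168 to 290 CPM in WT.

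The states were compared within each genotype, a contrast that the rule for the genes does not name, although the genes were chosen with earlier results of these data known. With IL-15, Aim2 rose past the threshold in both genotypes, and no other listed gene rose past it in either. Aim2 rose by 1.68 ± 0.18 log2 units in KO (81.5 ± 10.4 CPM in IL-15-treated and 23.9 ± 7.24 CPM in naive spleen, adjusted p = 4.13e-07) and by 1.97 ± 0.18 in WT (66.1 ± 4.72 and 15.9 ± 1.94 CPM, adjusted p = 4.76e-08), higher in 4 of 4 libraries without overlap in each. Gm4955 fell by 2.26 ± 0.20 in KO (1.19 ± 0.241 and 5.55 ± 1.19 CPM, adjusted p = 5.74e-08) and by 0.49 ± 0.16 in WT (51.4 ± 10.3 and 67.9 ± 8.90 CPM, adjusted p = 0.0182). Pydc3 fell by 0.99 ± 0.29 in KO (adjusted p = 0.0107) and by 1.12 ± 0.28 in WT (adjusted p = 0.00228). In a fit of the 3 pairs of libraries that share a library number, the KO change of Pydc3 was −0.6 ± 0.38 (adjusted p = 0.262) and did not pass. Gm4955, Pydc3 and Pydc4 share reads, so their changes are not separate measurements. Their sum was lower with IL-15 without overlap in both genotypes. It was 7.75 ± 1.34 CPM with IL-15 and 17.7 ± 4.08 CPM in naive spleen in KO, and 93.5 ± 22.4 and 147 ± 12.1 CPM in WT. Whether the change of Gm4955 differed between KO and WT was not tested, because that difference contains the KO and WT contrast the genes were chosen on.

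Of the 8 genes in KO, 1 rose and 3 fell with IL-15 (Gm4955, Pydc3 and Pydc4), where 41.7% of all genes tested passed (20.7% higher and 21.0% lower). Groups stood apart for 2 higher and 2 lower genes, against 24.4% and 15.9% of all genes. Their median log2 change was −0.62, beside −0.007 over all genes. In WT, 1 rose and 4 fell (Gm4955, Ifi203, Pyhin1 and Pydc3), where 52.4% of all genes passed (26.4% higher and 26.0% lower), with a median of −0.46 beside −0.012, and groups stood apart for 1 higher and 2 lower genes, against 27.3% and 20.8% of all genes. Ifi202b, at 0 in both WT groups, is among these 8, and without it the median of the 7 others was −0.49. Pydc4 fell by 0.91 ± 0.31 in KO (adjusted p = 0.0270), and its change in WT was −0.44 ± 0.26 (adjusted p = 0.177). Pyhin1 fell by 0.66 ± 0.19 in WT (150 ± 23.6 and 223 ± 8.36 CPM, adjusted p = 0.00659), with −0.34 ± 0.19 in KO (adjusted p = 0.165). Ifi203 fell by 0.39 ± 0.16 in WT (adjusted p = 0.0457), with −0.28 ± 0.16 in KO (adjusted p = 0.156). Ifi204 had 0.72 ± 0.31 in KO (adjusted p = 0.0736) and −0.77 ± 0.32 in WT (adjusted p = 0.0535), and neither passed. In KO the Ifi204 libraries were nevertheless higher with IL-15 without overlap (12.9 ± 3.75 and 7.39 ± 2.33 CPM), while in WT the groups overlapped. Ifi202b had −1.37 ± 0.69 in KO (adjusted p = 0.132), with no overlap of the 4 libraries with the 4 naive ones, and in WT both groups were at 0.

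Several of these calls rest on few libraries, on the scaling or on the fit. In WT the call of Ifi203 was lost with DESeq2, with its size factors in edgeR, without a filter and with all 24 libraries fitted (adjusted p = 0.056 to 0.0884). In KO that of Pydc4 was lost in edgeR without a filter (adjusted p = 0.0553) and with only the 2 groups compared (adjusted p = 0.187). In the pairs that share a library number, Ifi203 in WT (adjusted p = 0.0741) and Pydc4 in KO (adjusted p = 0.639) were lost. Plain totals in place of TMM shifted the log2 changes with IL-15 upward by about 0.21 in KO and 0.3 in WT, and under them Gm4955 (−0.18, adjusted p = 0.409), Ifi203 (−0.08, adjusted p = 0.687) and Pyhin1 (−0.35, adjusted p = 0.109) no longer passed in WT, nor did Pydc4 in KO (−0.70, adjusted p = 0.0987). In WT the call of Ifi203 was lost without any of the 4 naive replicates or without IL-15 replicate 1, 2 or 4 (adjusted p = 0.0543 to 0.137), and that of Gm4955 without naive replicate 3 (0.0737) or IL-15 replicate 1 (0.0634) or 2 (0.0580). In KO the call of Pydc4 was lost without naive replicate 1 or 4 or IL-15 replicate 1, 2 or 4 (adjusted p = 0.0517 to 0.0871). Without the shallow KO naive replicate 1, Pyhin1 passed (−0.54, adjusted p = 0.00265) and so did Ifi203 (−0.41, adjusted p = 0.0253), and Ifi204 passed without KO naive replicate 2 (0.90, adjusted p = 0.0458). In KO Ifi204 also passed with DESeq2 (0.77, adjusted p = 0.0408), with only the 2 groups compared in edgeR (0.75, adjusted p = 0.0437) and on plain totals (0.96, adjusted p = 0.02). In WT Ifi204 passed without naive replicate 3 (−0.99, adjusted p = 0.0113) or 4 (−0.89, adjusted p = 0.0409), and with a filter of at least 1 CPM in 8 libraries (−0.77, adjusted p = 0.0498).

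Tumour-bearing lung was compared with the same naive spleen groups, so the 2 state comparisons share their naive libraries, and organ, tumour and any difference in preparation cannot be told apart. Aim2 was again higher in both genotypes, by 0.96 ± 0.16 in KO (46.9 ± 3.52 CPM in lung and 23.9 ± 7.24 CPM in naive spleen, adjusted p = 2.53e-05) and by 0.81 ± 0.16 in WT (28.0 ± 3.06 and 15.9 ± 1.94 CPM, adjusted p = 0.000146). Gm4955 fell by 0.96 ± 0.19 in KO (adjusted p = 0.000203) and by 0.69 ± 0.16 in WT (adjusted p = 0.000968). Ifi204 rose by 1.80 ± 0.33 in KO lung (26.0 ± 3.77 and 7.39 ± 2.33 CPM, adjusted p = 0.000101) and fell by 0.85 ± 0.35 in WT lung (2.90 ± 1.60 and 4.97 ± 2.43 CPM, adjusted p = 0.0459), where the libraries overlapped. Summed macrophage and monocyte markers were 156 to 649 CPM in KO lung and 8.76 to 18.7 CPM in KO naive spleen, and 60.1 to 139 CPM in WT lung and 7.05 to 10.9 CPM in WT naive spleen. Markers of other cells were higher in lung too. Neutrophil markers summed to 8.26 to 28.8 CPM in KO lung and 0 in KO naive spleen, and to 2.26 to 18.0 CPM in WT lung and at most 0.225 CPM in WT naive spleen. Melanocyte markers summed to 6.15 to 52.5 CPM in KO lung and 0 in KO naive spleen, and to 0.231 to 18.3 CPM in WT lung and at most 0.0989 CPM in WT naive spleen. Lung epithelium and endothelium markers summed to 118 to 515 CPM in KO lung and 104 to 130 CPM in KO naive spleen, and to 113 to 163 CPM in WT lung and 54.8 to 78.4 CPM in WT naive spleen. The naive sums came from part of the list. Sftpc, Sftpb, Sftpa1, Scgb1a1 and Cdh5 were at 0 in all KO naive libraries, and Sftpc, Sftpb and Sftpa1 in all WT naive libraries. None of the 8 markers was at 0 in every library of either lung group. The part of these cells in the lung changes of Aim2, Ifi204 and the genes below was not tested.

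Pydc3 rose by 0.67 ± 0.27 in KO lung (17.7 ± 4.06 and 10.9 ± 4.80 CPM, adjusted p = 0.0464), with overlapping libraries, and fell by 1.05 ± 0.26 in WT lung (32.2 ± 5.85 and 66.4 ± 5.27 CPM, adjusted p = 0.00178), without overlap. Pydc3 shares reads with Gm4955 and Pydc4, and Gm4955 fell in KO lung. The sum of the 3 was 21.7 ± 4.3 CPM in KO lung and 17.7 ± 4.08 CPM in KO naive spleen, with overlap. In WT it was 91.9 ± 10.8 and 147 ± 12.1 CPM, lower in lung without overlap. Pyhin1 fell by 0.86 ± 0.17 in WT lung (123 ± 7.26 and 223 ± 8.36 CPM, adjusted p = 0.000139), and its change in KO was 0.10 ± 0.17 (adjusted p = 0.685). Ifi203 fell by 0.53 ± 0.14 in KO lung (adjusted p = 0.00453), with −0.29 ± 0.14 in WT (adjusted p = 0.1). It shares reads with Mndal, and the sum of both overlapped between lung and naive spleen in each genotype, as given below. Pydc4 had −0.03 ± 0.31 in KO (adjusted p = 0.943) and 0.52 ± 0.26 in WT (adjusted p = 0.0935), and Ifi202b had −0.28 ± 0.72 in KO (adjusted p = 0.789). The differences between KO and WT in these changes were not tested, for the reason given for IL-15.

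In lung, 3 of 8 genes rose and 2 fell in KO, where 42.4% of all genes passed (24.3% higher and 18.1% lower), with a median of 0.03 beside 0.049 over all genes, and groups stood apart for 2 higher and 2 lower genes (23.8% and 15.4% of all genes). In WT 1 rose and 4 fell, where 49.2% passed (29.2% higher and 20% lower), with a median of −0.49 beside 0.078, and of −0.69 over the 7 genes with reads in WT, and groups stood apart for 1 higher and 4 lower genes (23.6% and 16.7%). The call of Pydc3 in KO was lost without KO naive replicate 1 (0.42, adjusted p = 0.134) or 3 (0.0718) and without KO lung replicate 3 (0.0675) or 4 (0.170). The call of Ifi204 in WT was lost without naive replicate 1 (0.213) or 2 (0.117) or lung replicate 2 (0.0960), 3 (0.0941) or 4 (0.174), and Pydc4 passed in WT without the shallow lung replicate 1 (0.66, adjusted p = 0.0397). With only the 2 groups compared, the calls of Pydc3 in KO (adjusted p = 0.113) and of Ifi204 in WT (adjusted p = 0.134) were lost. Ifi203 in WT then passed (−0.33, adjusted p = 0.0429). On plain totals the call of Pydc3 in KO was lost (0.59, adjusted p = 0.0694).

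**Figure D5:**
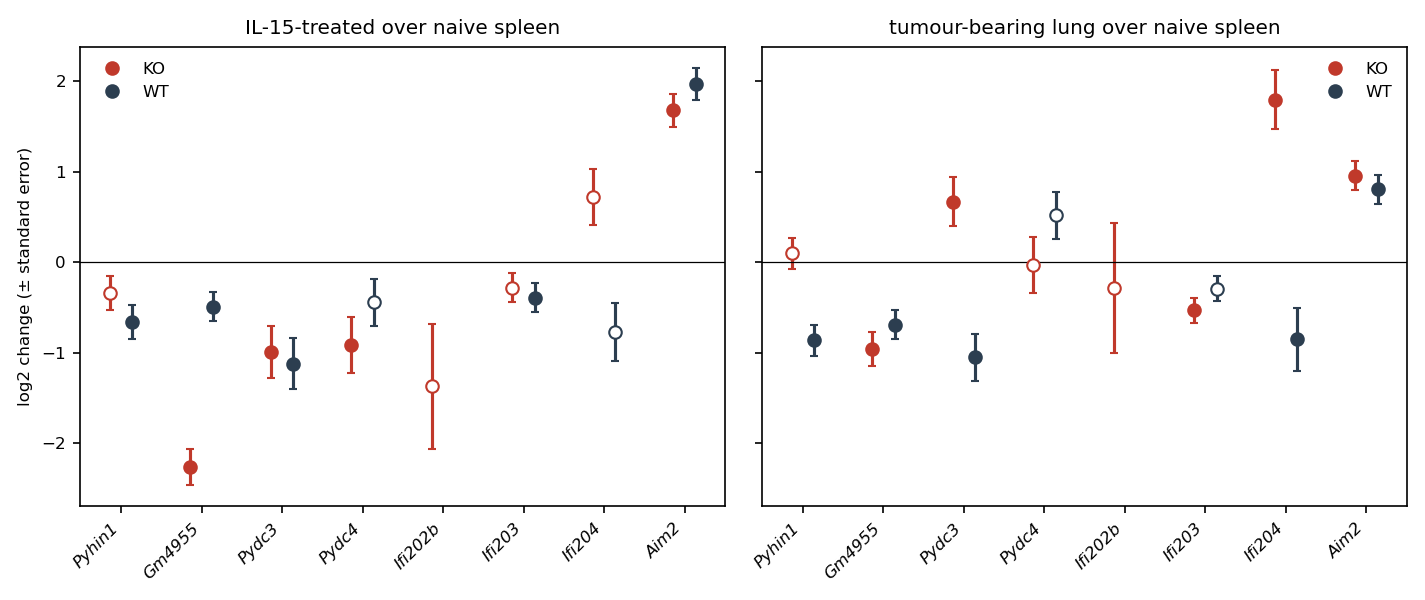
Log2 change (vertical axis, with standard error) of IL-15-treated over naive spleen (left) and tumour-bearing lung over naive spleen (right) for the 8 genes, in KO (red) and WT (dark blue). Filled points passed an adjusted p of 0.05 and open points did not, and Ifi202b in WT has no point since both groups were at 0. Aim2 is above 0 in all 4 comparisons and Gm4955 below 0 in all 4.

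The unlisted rows of the cluster followed in part. BC094916 fell with IL-15 in KO by 0.92 ± 0.25 (adjusted p = 0.00598), with −0.02 ± 0.25 in WT (adjusted p = 0.949). Mndal rose in lung by 0.93 ± 0.16 in KO (adjusted p = 5.82e-05) and by 0.54 ± 0.16 in WT (adjusted p = 0.00726). Mndal and Ifi203 share reads, and Ifi203 was lower by mean in lung in both genotypes. Their sum overlapped between lung and naive spleen in each. It was 344 ± 26.3 CPM in lung and 374 ± 87.5 CPM in naive spleen in KO, and 374 ± 31.1 and 376 ± 21.0 CPM in WT. In lung 2 of 4 tested rows rose in KO (Mndal and Gm16340, the pseudogene, by 3.34 ± 1.14 with adjusted p = 0.0205) and 1 of 4 in WT, where 24.3% of all genes rose in KO lung and 29.2% in WT lung.

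Genes that act with the family were followed from lists of the inflammasome, of cytosolic nucleic acid sensing and of the interferon pathway. Their counts stand against all genes tested, of which 20.7% rose and 21.0% fell with IL-15 in KO, 26.4% rose and 26.0% fell with IL-15 in WT, 24.3% rose and 18.1% fell in KO lung, and 29.2% rose and 20% fell in WT lung. Of 13 tested inflammasome and pyroptosis genes, 3 rose and 3 fell with IL-15 in KO, and 3 rose and 6 fell in WT. Nlrp3, an inflammasome sensor, rose by 8.83 ± 0.67 log2 units in KO (adjusted p = 5.42e-09) and by 7.04 ± 0.57 in WT (adjusted p = 1.01e-08). Pycard, the adaptor AIM2 needs, fell by 0.52 ± 0.15 in KO (adjusted p = 0.0106) and by 0.96 ± 0.15 in WT (adjusted p = 4.22e-05), the opposite direction to Aim2. In lung 7 of 15 rose and 3 fell in KO, and 5 rose and 5 fell in WT, with Gsdmd, the pore-forming protein of pyroptosis, up by 0.93 ± 0.12 in KO (adjusted p = 7.46e-07) and 0.72 ± 0.12 in WT (adjusted p = 1.57e-05). Nlrp3 rose in lung by 6.79 ± 0.76 in KO (adjusted p = 1.31e-07) and by 5.04 ± 0.64 in WT (adjusted p = 4.17e-07), where macrophage and monocyte markers were also higher, as given above, and their part was not tested.

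Of 18 genes of cytosolic nucleic acid sensing, 3 rose and 7 fell with IL-15 in KO, and 3 rose and 9 fell in WT. Mb21d1, which encodes the DNA sensor cGAS, rose by 1.05 ± 0.11 in KO (adjusted p = 2.31e-07) and by 1.09 ± 0.10 in WT (adjusted p = 9.49e-08), as Aim2 did. Samhd1, a nucleotide-cleaving restriction factor, fell by 0.68 ± 0.10 in KO (adjusted p = 2.24e-05) and by 0.72 ± 0.10 in WT (adjusted p = 7.45e-06). In lung 5 rose and 3 fell in KO and 3 rose and 4 fell in WT. Irf7 rose by 1.5 ± 0.12 in KO (adjusted p = 4.92e-10) and by 1.4 ± 0.12 in WT (adjusted p = 8.81e-10). Tmem173, which encodes STING, was lower, at −0.85 ± 0.09 in KO (adjusted p = 7.18e-08) and −1.01 ± 0.09 in WT (adjusted p = 2.55e-09).

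Of 33 tested genes of the interferon receptor and response, 21 fell and 3 rose with IL-15 in KO, and 25 fell and 5 rose in WT, where 21.0% and 26.0% of all genes fell. Their median log2 change was −0.64 in KO, beside −0.007 over all genes, and −0.80 in WT, beside −0.012. Cmpk2, an interferon-induced mitochondrial kinase, fell by 2.02 ± 0.17 in KO (adjusted p = 1.40e-08) and by 1.97 ± 0.16 in WT (adjusted p = 1.60e-08). Irf1 fell by 0.94 ± 0.09 in KO (adjusted p = 1.93e-07). In lung 12 of 35 fell and 8 rose in KO, and 17 fell and 7 rose in WT, with medians of 0.04 in KO and −0.39 in WT. Ifi47, an interferon-induced GTPase, fell by 1.52 ± 0.11 in KO lung (adjusted p = 4.26e-11) and by 1.79 ± 0.11 in WT lung (adjusted p = 1.27e-12).

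The tested genes next to the cluster are described without a test between KO and WT, as for the listed genes. Dusp23, 717.9 kb before Aim2, stood at 1.99 ± 1.60 CPM in KO and 6.22 ± 0.909 CPM in WT naive spleen, 2.83 ± 0.351 in KO and 8.47 ± 2.49 in WT under IL-15, and 2.76 ± 0.332 in KO and 10.6 ± 4.46 in WT lung. Fcrl6, 748.3 kb before, stood at 7.89 ± 2.77 CPM in KO and 2.88 ± 0.580 CPM in WT naive spleen, and its KO over WT change was 1.45, 1.46 and 1.46 log2 units in the 3 states. Fh1, 1568.6 kb beyond the end of the cluster, stood at 54.8 ± 9.95 CPM in KO and 54.3 ± 5.43 CPM in WT naive spleen, 75.8 ± 6.14 in KO and 64.2 ± 3.37 in WT with IL-15, without overlap, and 49.7 ± 6.33 in KO and 39.0 ± 5.09 in WT lung. Cadm3, which overlaps Aim2, averaged 1.45 CPM in KO and 0.0974 CPM in WT naive spleen, 0.125 in KO and 0.396 in WT with IL-15, and 1.23 in KO and 0.625 in WT lung.

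For Ifi202b, Ifi203, Ifi204 and Aim2, the gene outside the list whose profile over the 24 libraries was most like theirs was found among 11763 genes by the root mean square (RMS) difference of centred log2 CPM. For Ifi204 the closest was Fcrl6, at 0.71. Aim2 was closest to Nek8 (0.25), Ifi203 to Lamp1 (0.14) and Ifi202b to Srp54b (0.31), all on other chromosomes. Each difference is to be read beside the SD of the listed gene's own log2 CPM over the libraries. That SD was 1.07 for Ifi204, 0.84 for Aim2, 0.26 for Ifi203 and 0.55 for Ifi202b, so a small difference alone does not rank the likeness. All 24 libraries enter each value, so likeness here includes the shared split by genotype and state.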

How the data were processed

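The deposited table holds expected counts (38215 rows, 24 libraries), estimates that need not be whole. Per the submitters' processing notes the authors used cutadapt 1.9, STAR 2.5.2a, RSEM 1.2.30 and GRCm38; the sources used here state no settings, strand or annotation. Per the labels' protocols, libraries were poly(A)-enriched and made with a directional kit. Expected counts were rounded and tested with edgeR 4.0.16 in R 4.3.3 (filterByExpr, TMM, quasi-likelihood F test, Benjamini-Hochberg over all genes tested, threshold 0.05). Spleen contrasts used 16 libraries (13344 genes), lung against spleen all 24 (14275) and KO against WT in lung 8 (13129). The standard error is the log2 change over the root of F. Family sums add expected counts before scaling and carry no p. Promoters came from RefSeq (12 of 14 cluster genes), exons from GENCODE M21. The test was run on counts simulated from edgeR's own fit. That check cannot bear on how reads are split between copies. The members and lists were chosen with earlier results of these data known. Named genes are all 8 members, other cluster rows of at least 1 CPM, the 3 with the smallest p of each list and state comparison, the most similar profiles and the genes next to the cluster, and part of these is printed; the most similar profiles of Pyhin1, Gm4955, Pydc3 and Pydc4 are not reported here. No library was left out. By the design text the libraries are biological replicates, and p-values measure the spread between them. As alternatives, DESeq2 1.42.0 was run, as were edgeR with the size factors of DESeq2, plain totals, other filters, other sets of libraries, blocks, and fits without each library.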

Additional observations from a re-analysis of the deposited data

Results flagged for a closer look

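Of 54 sets of 4 libraries examined (the 8 genes and the family sum in each of 6 groups), 1 held a library far from the others by Dixon's criterion. For Ifi204, KO IL-15 replicate 3 stood at 18.5 CPM while the other 3 libraries of its group stood between 10.4 and 11.7 CPM, so the gap was 0.842 of the group's range, above Dixon's 95% critical value for 4 values. Chance flags about 1 in 20 such sets. Without this library the 3 others remained above every WT IL-15 library, whose highest value was 3.63 CPM.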

How the results depend on the processing

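No listed gene changed direction past the threshold in any comparison. Counts of called genes were small, so 1 gene moves them. In KO with IL-15 the count of 1 higher became 2 with DESeq2, with only the 2 groups compared and on plain totals, and the count of 3 lower became 1 in the 3 pairs of libraries that share a library number. In WT with IL-15 the 4 lower became 1 on plain totals. In WT lung the 1 higher became 2 with both shallow libraries left out, an alternative chosen, like plain totals, after seeing the data. Between KO and WT, the 2 higher became 1 with the stricter filter in naive spleen and under IL-15, with only the 2 groups compared in naive spleen, and with the replicate block under IL-15 and in lung. Leaving out a library in turn gave 1 to 2 higher with IL-15 in KO, 2 to 4 lower with IL-15 in WT and 1 to 2 higher in WT lung, and between KO and WT 1 to 2 higher in each state. The family sum changed with IL-15 in WT by −0.09 on plain totals (−0.31 with TMM); over all 14 rows it changed by −0.31 in WT lung (−0.50 over 8) and by −0.34 between KO and WT lung (−0.44 over 8). The cause of these moves was not tested.

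Over all genes, KO against WT in lung gave 82 calls, but 129 without a filter, 316 with DESeq2, 448 without WT lung replicate 1, 50 without WT replicate 2, and 41, 45 and 47 without KO replicates 2, 3 and 4. Under IL-15 there were 18 calls and 30 with DESeq2, and in naive spleen 2705 and 1697 without WT replicate 3. Libraries with the same replicate number in the labels deviated with correlations of −0.19 to 0.247, and libraries that share the number in their library name, in the 4 state comparisons, with −0.054 to 0.2. Neither was above 0.1 for every pair of any comparison, so the numbers were not used to pair samples; beyond the counts above, the replicate block ended the call of Ifi204 in WT lung (−0.82, adjusted p = 0.0591). Genes near 1 CPM or below, such as Ifi202b and Pydc4 in KO, are limited by depth.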

Other observations

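The remaining rows of the cluster were near the limit of these libraries. Gm16340, a pseudogene, had 90.73 expected counts over the 4 KO lung libraries and 3.11 over the 4 WT lung libraries, 49.29 in KO and 3.10 in WT under IL-15, and 8.20 in KO and 1.75 in WT naive spleen. AI607873 had 100 counts in KO and 23 in WT lung, 11.01 in KO and 3 in WT under IL-15, and 10 in KO and 0 in WT naive spleen. Ifi205 had 13.01 counts in KO naive spleen, 3.01 in KO lung and 0 elsewhere. Gm16340 and Ifi205 stay under 1 CPM in every group mean and are given here for completeness. These rows share reads with Ifi203, Ifi204, Mnda and Mndal, and no test was made between genotypes.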
